A study of Homo sapiens with 8 samples.

Results

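Notch signalling genes were examined in 2 related human breast epithelial lines, MCF10A and DCIS.COM, each carrying a HOTAIR vector or the empty vector. The set was a list of 10 gene symbols, namely the receptors NOTCH1, NOTCH2 and NOTCH3, the ligands JAG1, JAG2 and DLL1, the glycosyltransferase LFNG, and the targets HES1, HEY1 and NRARP. Of these, 9 were matched by symbol among the 13771 genes of the expression table, and HEY1 was not analysed here.

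MCF10A cells come from normal breast epithelium and form no tumors, and DCIS.COM cells, derived from the MCF10 lineage, form grafts in mice that resemble ductal carcinoma in situ, a growth confined to the milk ducts. Both were stably transduced with the lentiviral vector pCDH carrying the long non-coding RNA HOTAIR, or with pCDH-empty as the control, under puromycin selection. RNA-seq was done on 2 libraries for each of the 4 groups, MCF10A pCDH-empty, MCF10A pCDH-HOTAIR, DCIS.COM pCDH-empty and DCIS.COM pCDH-HOTAIR, 8 libraries in all. Both media held horse serum, but only MCF10A cells received epidermal growth factor, hydrocortisone, insulin and cholera toxin, so cell line and medium cannot be told apart. The labels do not say that the 2 libraries of a group came from separate cultures, and p-values then measure only the spread between these libraries.

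Notch receptors sit at the cell surface and are activated by ligands of the Jagged and Delta families on a neighbouring cell. Cleavage by ADAM proteases and gamma-secretase then frees the intracellular part of the receptor, which enters the nucleus and acts with the DNA-binding protein RBPJ and Mastermind co-activators on targets such as HES and HEY genes. In the mammary gland the pathway takes part in the choice between luminal and basal epithelial fates.

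Whole reads were recovered from the values of every library, with totals between 19306864 and 34884841 reads. HOTAIR itself had 45 and 40 reads in MCF10A pCDH-empty against 4614 and 4827 in MCF10A pCDH-HOTAIR, and 119 and 140 reads in DCIS.COM pCDH-empty against 7166 and 6385 in DCIS.COM pCDH-HOTAIR, which follows the labels. One library stood apart. DCIS.COM pCDH-empty 1 lay at a Euclidean distance of 46.4 from DCIS.COM pCDH-empty 2 over the log2 values of all genes, whereas DCIS.COM pCDH-empty 2 lay at 30.1 and 28.7 from the DCIS.COM pCDH-HOTAIR libraries. For the Notch genes of the set, fold changes between lines with empty vector are given with and without it. Between vectors in DCIS.COM, and for the difference in the HOTAIR effect, this was done for some of these genes. Fold changes of the other pathway genes and the receptor shares are given only with it. All 8 mammary epithelial markers looked for (EPCAM, CDH1, KRT5, KRT14, KRT17, KRT8, KRT18 and TP63) were measured in both lines, and their summed level ran from 10535 to 11805 CPM (read counts scaled to library size) in MCF10A and from 6252 to 7838 CPM in DCIS.COM. Single markers differed in opposite directions, since mean log2 CPM with empty vector was lower in DCIS.COM for the basal keratins KRT5 (12.1 against 9.48), KRT14 (10.3 against 5.66) and KRT17 (11.8 against 9.26) and higher for EPCAM (6.08 against 8.41) and the luminal keratins KRT8 (9.20 against 11.5) and KRT18 (9.19 against 10.9). CDH1 was also lower (8.73 against 8.14), unlike EPCAM, and TP63 was higher (3.68 against 4.43), unlike KRT5, KRT14 and KRT17. Of 4 leukocyte markers only CD68 was measured, at 19.7 to 23.9 CPM in MCF10A and 4.36 to 5.96 CPM in DCIS.COM, and of 4 endothelial markers only PECAM1, at 1.77 to 2.77 CPM in MCF10A and 10.2 to 13.4 CPM in DCIS.COM. The 4 fibroblast markers looked for were not analysed here. The part of these marker levels in the results was not tested.

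The promoters of a pair of direct targets, HES1 and NRARP, are shown because these targets differed in how they separated the cell lines. The letters are the 250 bases before each transcript start, taken from RefSeq (GRCh38) and found once, unchanged, in GRCh37, the build of the deposited data. Capitals mark TGGGAA, the core of the RBPJ binding motif, which was searched on both strands. The HES1 promoter lies at chr3:193853687-193853936 on the plus strand and that of NRARP at chr9:140196724-140196973 on the minus strand.
HES1: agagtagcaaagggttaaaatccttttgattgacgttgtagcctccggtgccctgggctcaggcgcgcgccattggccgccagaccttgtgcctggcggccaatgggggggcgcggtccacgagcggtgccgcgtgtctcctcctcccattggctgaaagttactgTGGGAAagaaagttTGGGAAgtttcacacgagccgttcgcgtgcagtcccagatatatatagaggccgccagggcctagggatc
NRARP: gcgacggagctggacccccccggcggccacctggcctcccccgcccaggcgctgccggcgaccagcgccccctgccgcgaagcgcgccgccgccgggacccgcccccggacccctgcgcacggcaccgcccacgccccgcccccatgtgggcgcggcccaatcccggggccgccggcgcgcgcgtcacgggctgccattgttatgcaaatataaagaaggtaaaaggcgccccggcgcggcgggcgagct
HES1 held the motif at 84 and 70 bases before its start, both on the strand of the gene, and NRARP held 0 copies in this window. A link between these copies and the RNA levels was not tested, and copies outside the 250 bases were not searched. Of 35116 promoters of the same length, 20.8% held at least 1 copy and 2.90% at least 2. Promoters were matched for 8 of the 10 listed genes, 9 promoters in all, and the other promoters with the motif among them were limited to 1 of LFNG, so that 2 of 9 held it.

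The first question was how the Notch genes differed between DCIS.COM and MCF10A in the absence of added HOTAIR. NOTCH1, NOTCH3, JAG1, JAG2, DLL1 and NRARP were higher in DCIS.COM, 6 of the 9 genes, and 0 of 9 were lower. HES1, LFNG and NOTCH2 were not called. Genes were called by limma's p-value, adjusted over all 13771 genes by the Benjamini-Hochberg method, under 0.05 together with a fold change of at least 1.5. By this rule 22.5% of all genes were higher and 23.8% lower, so a call was common between these lines. An unadjusted limma p-value under 0.05 was found for 71.0% of all genes. The share of all genes whose libraries did not overlap between the lines is not given here, so lack of overlap is only described. DLL1 and NRARP entered the table through the DCIS.COM libraries alone, since neither reached 0.5 CPM in any MCF10A library, and they therefore had to differ; of the other 7 genes, 4 were called higher. The median log2 fold change was 0.97 over these 7 genes and -0.00012 over all genes tested. In bulk RNA, fewer cells expressing a gene and less RNA per cell cannot be told apart.

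When DCIS.COM pCDH-empty 1 was left out, 6 genes were called, with log2 fold changes of 1.93 for NOTCH1, 1.78 for NOTCH3, 1.35 for JAG1, 0.88 for JAG2, 4.40 for DLL1 and 3.38 for NRARP, and values of -0.12 for NOTCH2, 0.18 for LFNG and 0.25 for HES1. Each called value was slightly smaller without that library.

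Among the receptors, NOTCH1 (GRCh37 chr9:139388885-139440500, minus strand) had log2 CPM of 4.28 and 4.47 in MCF10A pCDH-empty and 6.65 and 6.30 in DCIS.COM pCDH-empty. Both DCIS.COM libraries were far above both MCF10A libraries, by 4.29-fold (log2 fold change 2.10, SE 0.124, limma adjusted p = 2.03e-06). NOTCH3 (chr19:15269849-15311806, minus strand) had log2 CPM of 3.10 and 3.01 in MCF10A and 5.05 and 4.84 in DCIS.COM. The groups did not overlap for this gene either, and the level in DCIS.COM was 3.70-fold higher (log2 fold change 1.89, SE 0.124, limma adjusted p = 3.62e-06). NOTCH2 (chr1:120454176-120643366, minus strand), the most abundant of the receptors, had log2 CPM of 7.62 and 7.92 in MCF10A and 7.83 and 7.65 in DCIS.COM. Here the libraries of the lines overlapped, with a log2 fold change of -0.03 and a 95% interval from -0.27 to 0.21 (limma adjusted p = 0.829). NOTCH2 shares near-identical sequence with NOTCH2NLA, which had mean log2 CPM of 5.86 in MCF10A pCDH-empty and 5.28 in DCIS.COM pCDH-empty, and how such reads were assigned is not given in the sources used here, so the NOTCH2 values are uncertain.

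The ligands of the set, JAG1, JAG2 and DLL1, were all higher in DCIS.COM. JAG1 (chr20:10618332-10654647, minus strand) had log2 CPM of 5.89 and 6.05 in MCF10A pCDH-empty and 7.55 and 7.32 in DCIS.COM pCDH-empty. This was a 2.76-fold difference with no overlap (log2 fold change 1.46, SE 0.0925, limma adjusted p = 2.94e-06). JAG2 (chr14:105607319-105635161, minus strand), a second Jagged ligand, had log2 CPM of 4.70 and 4.76 in MCF10A and 5.79 and 5.61 in DCIS.COM. It was 1.96-fold higher, again without overlap (log2 fold change 0.97, SE 0.0823, limma adjusted p = 1.69e-05). DLL1 (chr6:170591294-170615653, minus strand), a Delta-like ligand, had 1 and 0 reads in MCF10A pCDH-empty and 54 and 47 reads in DCIS.COM pCDH-empty. DLL1 was thus close to undetected in MCF10A and low but present in DCIS.COM, with 1 read against 101. The ratio per read of depth was 102, with an exact 95% interval from 17.9 to 4065 that covers counting error only. Because DLL1 entered the table through the DCIS.COM libraries alone, a difference was fixed in advance and the interval only describes it. FAM120B, which overlaps DLL1 on the opposite strand, had log2 CPM between 4.40 and 4.87 in all 8 libraries, including those with 0 reads for DLL1.

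LFNG (chr7:2552163-2568811, plus strand), a Fringe enzyme that adds sugars to Notch receptors and so alters their response to each ligand family, had log2 CPM of 3.07 and 2.85 in MCF10A pCDH-empty and 3.20 and 3.14 in DCIS.COM pCDH-empty. The DCIS.COM libraries were slightly the higher, and the log2 fold change of 0.21 had a 95% interval from -0.05 to 0.47 (limma adjusted p = 0.128).

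The targets HES1 and NRARP differed in the size of the change. HES1 (chr3:193853937-193856521, plus strand), a transcriptional repressor, had log2 CPM of 4.73 and 4.76 in MCF10A pCDH-empty and 4.99 and 5.00 in DCIS.COM pCDH-empty. The groups did not overlap and the adjusted p-value was under the threshold, but the 1.19-fold difference did not reach 1.5-fold (log2 fold change 0.25, 95% interval 0.07 to 0.42, limma adjusted p = 0.0188). With no fold threshold, 9394 of all 13771 genes passed in this comparison. NRARP (chr9:140194083-140196723, minus strand), a feedback inhibitor that binds the intracellular part of Notch, had 13 and 11 reads in MCF10A and 180 and 134 reads in DCIS.COM. All DCIS.COM values were above all MCF10A values, and 24 reads against 314 gave a ratio of 13.2 after scaling for depth (95% interval 8.71 to 20.9, counting error only). As with DLL1, the filter had fixed a difference in advance, which this interval only describes.

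**Figure D1:**
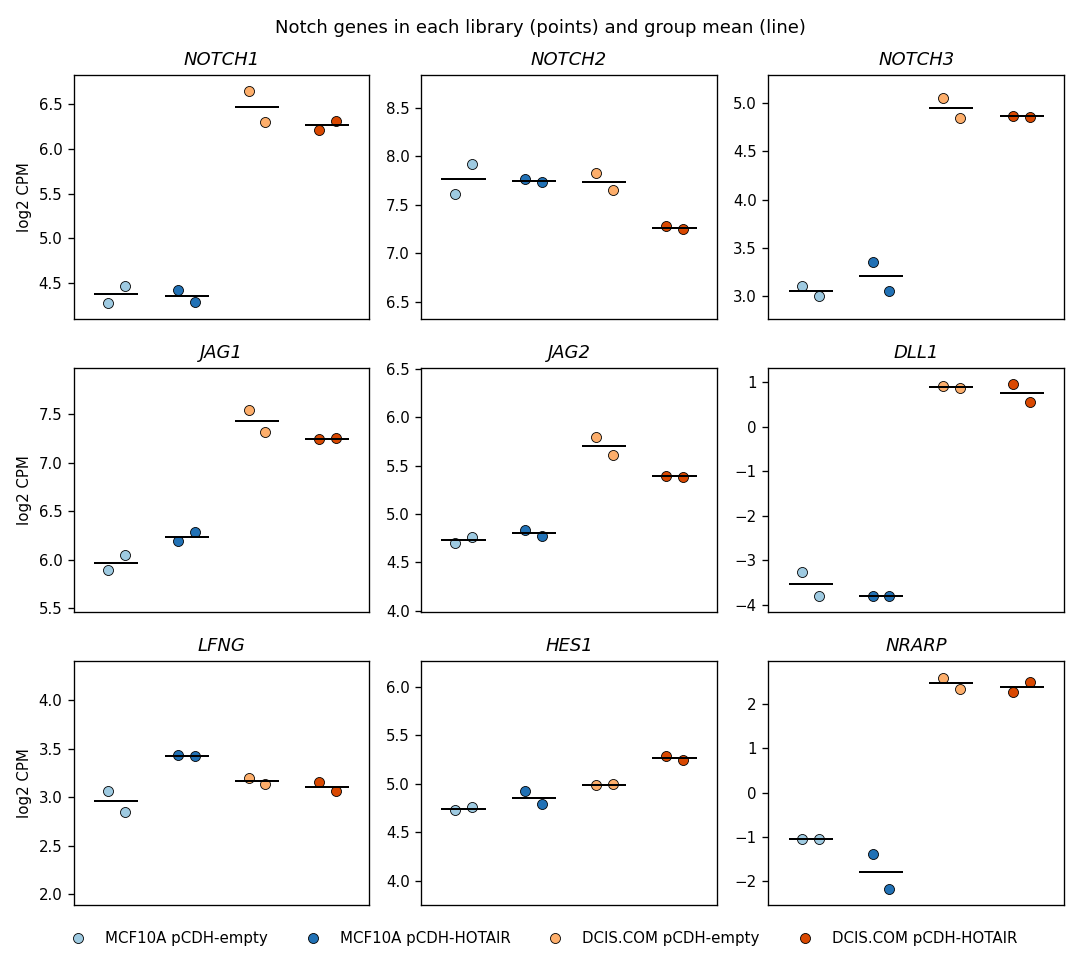
Level of the 9 Notch genes as log2 CPM (vertical axis, a separate range for each gene), with a point for each of the 8 libraries and a line at each group mean. NOTCH1, NOTCH3, JAG1, JAG2, DLL1 and NRARP lie higher in the DCIS.COM libraries, while NOTCH2 overlaps between the lines with empty vector.

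Levels of different genes were compared per length, as CPM per kilobase of the canonical transcript (RPKM). In MCF10A pCDH-empty the order was NOTCH2 at 19.2, HES1 at 17.0, JAG1 at 10.6, JAG2 at 4.58, LFNG at 3.16, NOTCH1 at 2.17, NOTCH3 at 0.95, NRARP at 0.157 and DLL1 at 0.00424 RPKM. Of neighbours in this order, NOTCH2 and HES1 overlapped between libraries. In DCIS.COM pCDH-empty the order was JAG1 at 29.2, HES1 at 20.2, NOTCH2 at 18.7, NOTCH1 at 9.36, JAG2 at 9.0, LFNG at 3.65, NOTCH3 at 3.54, NRARP at 2.08 and DLL1 at 0.470 RPKM. There NOTCH1 and JAG2 overlapped, as did LFNG and NOTCH3, and both pairs changed places when all exons were counted in the length.

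The makeup of the receptor pool differed between the lines. NOTCH2 made up 85.9% of the summed receptor RPKM in MCF10A pCDH-empty (85.1% and 86.8% in the libraries) and 59.3% in DCIS.COM pCDH-empty (58.3% and 60.4%). NOTCH1 made up 9.75% in MCF10A and 29.5% in DCIS.COM, and NOTCH3 4.32% and 11.2%. The libraries of the lines did not overlap for any of these shares. Each share depends on every receptor in the sum, and the lower NOTCH2 share stood beside a NOTCH2 log2 fold change of -0.03. The uncertainty of the NOTCH2 values from NOTCH2NLA applies to the receptor shares with either vector. Of the summed RPKM of JAG1, JAG2 and DLL1, JAG1 held 69.7% in MCF10A and 75.5% in DCIS.COM, and DLL1 held 1.22% in DCIS.COM. These shares leave out ligands outside the set, among which DNER was at 54.7 RPKM in MCF10A pCDH-empty, above JAG1, and at 10.4 RPKM in DCIS.COM pCDH-empty, below it.

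**Figure D2:**
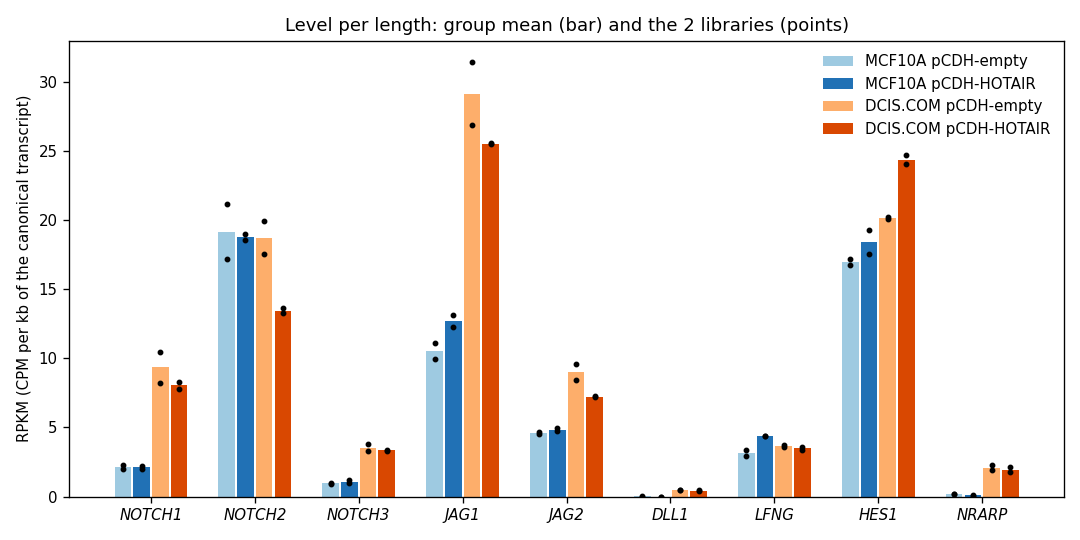
Level per length in RPKM (vertical axis, from 0) for the 9 Notch genes, with bars for the mean of each group and points for its 2 libraries. JAG1 rises from 10.6 RPKM in MCF10A pCDH-empty to 29.2 RPKM in DCIS.COM pCDH-empty, and NOTCH2 is lowest in DCIS.COM pCDH-HOTAIR.

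The same comparison was made between the lines with HOTAIR. NOTCH1, NOTCH3, JAG1, DLL1 and NRARP were called higher in DCIS.COM, 5 of 9, where 22.0% of all genes were called higher and 21.7% lower. Of the 7 genes not tied to the DCIS.COM libraries by the filter, 3 were called, with a median log2 fold change of 0.58 over the 7 and 0.0035 over all genes. Log2 CPM of NOTCH1 was 4.42 and 4.28 in MCF10A pCDH-HOTAIR and 6.22 and 6.32 in DCIS.COM pCDH-HOTAIR. Those of NOTCH3 were 3.36 and 3.06 against 4.87 and 4.85. Those of JAG1 were 6.19 and 6.29 against 7.24 and 7.25. None of these groups overlapped, and the log2 fold changes were 1.91 for NOTCH1, 1.65 for NOTCH3 and 1.01 for JAG1. The share of all genes without overlap is not given here, and 68.7% had an unadjusted limma p-value under 0.05. DLL1 had 0 reads in both MCF10A pCDH-HOTAIR libraries and 66 and 47 in DCIS.COM pCDH-HOTAIR. Against a floor of 3 reads over the MCF10A group the ratio was 21.7. The lower limit of the exact 95% interval of the ratio was 17.4 (counting error only). NRARP had 6 and 3 reads in MCF10A against 169 and 187 in DCIS.COM, a ratio of 22.8 after scaling for depth (95% interval 11.9 to 50.3, counting error only). For DLL1 and NRARP these ratios only describe a difference that the filter had fixed in advance.

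The other 4 genes passed the adjusted p-value without reaching 1.5-fold. With no fold threshold, 9024 of all 13771 genes passed in this comparison. JAG2 had log2 CPM of 4.83 and 4.78 in MCF10A pCDH-HOTAIR and 5.39 and 5.38 in DCIS.COM pCDH-HOTAIR, a log2 fold change of 0.58 that fell just short of the fold threshold (limma adjusted p = 0.000356). It was called under 6 of 18 alternatives. HES1 had 4.93 and 4.79 against 5.29 and 5.25, a log2 fold change of 0.41 (limma adjusted p = 0.00172). Both genes were higher in DCIS.COM without overlap. NOTCH2 had 7.76 and 7.73 against 7.28 and 7.25, a log2 fold change of -0.48 (limma adjusted p = 0.00377), and LFNG had 3.43 and 3.42 against 3.15 and 3.06, a log2 fold change of -0.32 (limma adjusted p = 0.0341). These were the genes that lay lower in DCIS.COM, and their groups did not overlap. NOTCH2 held 85.5% of the receptor RPKM in MCF10A pCDH-HOTAIR and 54.2% in DCIS.COM pCDH-HOTAIR, where NOTCH1 held 32.4%.

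The next question was whether HOTAIR changed the Notch genes in either line. None of the 9 genes was called with limma in MCF10A, where 0.0218% of all genes were called, nor in DCIS.COM, where 0.0871% were. At an unadjusted p-value under 0.05 there were 3 of the 9 in each line, beside 7.28% of all genes in MCF10A and 17.5% in DCIS.COM. On the recovered reads limma-voom called 0 in each, with 2 of the 9 in MCF10A and 3 in DCIS.COM at an unadjusted p-value under 0.05, beside 7.56% and 17.9% of all genes. With 2 libraries in each group, 0.333 is the smallest two-sided p that an exact permutation test allows. Both vector comparisons share their libraries with the comparisons between lines above.

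In MCF10A the 3 genes were LFNG, JAG1 and NRARP. LFNG had log2 CPM of 3.07 and 2.85 with empty vector and 3.43 and 3.42 with HOTAIR, a log2 fold change of 0.47 (95% interval 0.21 to 0.73, limma adjusted p = 0.317). JAG1 had 5.89 and 6.05 against 6.19 and 6.29, a log2 fold change of 0.27 (95% interval 0.05 to 0.48, limma adjusted p = 0.560). The HOTAIR libraries lay above the empty-vector libraries in both cases. NRARP had 13 and 11 reads with empty vector and 6 and 3 with HOTAIR, and the log2 fold change was -0.74 (95% interval -1.36 to -0.12, limma adjusted p = 0.585). At so few reads the counting error is large, and the value was -1.13 without MCF10A pCDH-HOTAIR 1, -0.35 without MCF10A pCDH-HOTAIR 2 and -0.19 with a pseudocount of 1 CPM. NOTCH1, NOTCH2 and NOTCH3 overlapped between the vectors, with log2 fold changes of -0.02, -0.02 and 0.15, and the widest of their 95% intervals ran from -0.31 to 0.26 for NOTCH1. Groups did not overlap for 4 genes that lay higher with HOTAIR (JAG1, JAG2, LFNG and HES1) and for 1 that lay lower (NRARP), where 22.5% of all genes were separated upward and 24.8% downward.

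In DCIS.COM the 3 genes were NOTCH2, JAG2 and HES1. NOTCH2 had log2 CPM of 7.83 and 7.65 with empty vector and 7.28 and 7.25 with HOTAIR, a log2 fold change of -0.48 (95% interval -0.72 to -0.23, limma adjusted p = 0.161). JAG2 had 5.79 and 5.61 against 5.39 and 5.38, a log2 fold change of -0.31 (95% interval -0.50 to -0.12, limma adjusted p = 0.203). In both genes the HOTAIR libraries were the lower. HES1 had 4.99 and 5.00 against 5.29 and 5.25, a log2 fold change of 0.27 (95% interval 0.10 to 0.45, limma adjusted p = 0.221), with the HOTAIR libraries the higher. JAG1 had a log2 fold change of -0.19 (95% interval -0.40 to 0.03) and NOTCH1 one of -0.21 (95% interval -0.50 to 0.08). Groups did not overlap for 3 genes that lay lower with HOTAIR (NOTCH2, JAG1 and JAG2) and for 1 that lay higher (HES1), where 24.5% of all genes were separated downward and 24.7% upward. When DCIS.COM pCDH-empty 1 was left out, values were -0.38 for NOTCH2, -0.22 for JAG2, -0.07 for JAG1, -0.04 for NOTCH1 and 0.27 for HES1. When DCIS.COM pCDH-empty 2 was left out instead, they were -0.57 for NOTCH2, -0.40 for JAG2, -0.30 for JAG1, -0.38 for NOTCH1 and 0.28 for HES1. None of these 5 changes reached 1.5-fold in that fit, where 1 library alone stood for DCIS.COM pCDH-empty.

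**Figure D3:**
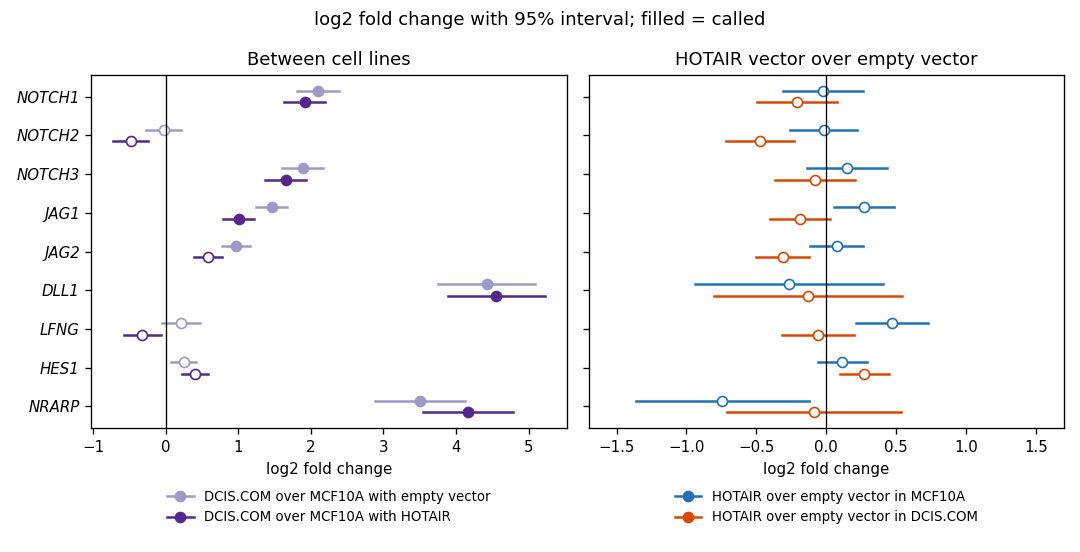
Log2 fold change (horizontal axis) of the 9 Notch genes with its 95% interval, between cell lines for each vector (left) and between vectors for each cell line (right); filled points were called by limma. Filled points appear in the comparison of lines, 6 with empty vector and 5 with HOTAIR, and 0 in the comparison of vectors; the DLL1 and NRARP values depend on the prior added to their low reads.

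The difference in the HOTAIR effect between the lines was tested as an interaction, DCIS.COM minus MCF10A, with no fold threshold. None of the 9 Notch genes was called, where 0.0436% of all genes were, and 4 had an unadjusted p-value under 0.05, beside 10.5% of all genes. By limma-voom, 0 were called and 4 had an unadjusted p-value under 0.05, beside 10.1%. The interaction was -0.45 for JAG1 (95% interval -0.76 to -0.15, limma adjusted p = 0.397) and -0.53 for LFNG (95% interval -0.90 to -0.16, limma adjusted p = 0.397). It was -0.39 for JAG2 (95% interval -0.66 to -0.12, limma adjusted p = 0.398) and -0.46 for NOTCH2 (95% interval -0.80 to -0.12, limma adjusted p = 0.422). All 4 values were negative, and which library stood for DCIS.COM pCDH-empty decided their calls. Without DCIS.COM pCDH-empty 2 all 4 were called, with values of -0.57 for JAG1, -0.56 for LFNG, -0.48 for JAG2 and -0.55 for NOTCH2, while without DCIS.COM pCDH-empty 1 none was, with values of -0.34, -0.50, -0.29 and -0.37. Of all genes, 32.1% were called without DCIS.COM pCDH-empty 2 and 0.646% without DCIS.COM pCDH-empty 1, and in both fits the remaining library was assumed to vary like those of the other groups.

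The rest of the pathway was described from a list of 50 further genes grouped by role, of which 42 were analysed. Between the lines with empty vector, 7 were called higher in DCIS.COM and 13 lower, and 22 were not called, with a median log2 fold change of 0.04. Over all genes 46.3% were called there, 22.5% higher and 23.8% lower. In the lines with HOTAIR the counts were 7 higher, 13 lower and 22 not called, with a median of -0.09. Over all genes 43.7% were called, 22.0% higher and 21.7% lower. The counts by role that follow stand beside these same shares. In the vector comparisons 0 of the 42 were called in either line or for the interaction. At an unadjusted p-value under 0.05 there were 4 in MCF10A, 11 in DCIS.COM and 6 for the interaction by limma, and 4, 10 and 8 by limma-voom, which called 0. The shares of all genes at that threshold were those given above for the same comparisons.

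Of the other ligands, DNER and DLK2 were lower in DCIS.COM, in contrast to the Jagged and Delta genes of the set. DNER, a non-canonical ligand, had log2 CPM of 7.48 and 7.47 in MCF10A pCDH-empty and 5.11 and 5.06 in DCIS.COM pCDH-empty, a log2 fold change of -2.39 (SE 0.0587, limma adjusted p = 2.94e-08), and DLK2, a Delta-like protein, had a log2 fold change of -1.42. Both were also lower with HOTAIR, with log2 fold changes of -2.28 and -1.57. Among 4 further glycosylation genes 2 were higher, and MFNG, a Fringe enzyme related to LFNG, had 4 and 5 reads in MCF10A against 66 and 48 in DCIS.COM, so that it too entered the table through the DCIS.COM libraries. Of 8 genes of proteolytic activation 1 was lower, the gamma-secretase subunit APH1B, with log2 CPM of 4.10 and 4.17 in MCF10A pCDH-empty and 1.55 and 1.96 in DCIS.COM pCDH-empty and a log2 fold change of -2.38.

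Of 11 genes of endocytosis and turnover, 6 were lower and 1 higher. DTX1, a Deltex ubiquitin ligase, was the higher, with log2 CPM of 0.50 and 1.07 in MCF10A and 3.43 and 3.40 in DCIS.COM and a log2 fold change of 2.63, and its relative DTX4 was lower, with -1.32. Among 10 genes of the nuclear complex, 3 were higher and 1 lower, the latter being the Mastermind co-activator MAML3 at -1.09. With HOTAIR, MAML3 was at -1.29 and the acetyltransferase KAT2B at 1.12. KAT2B also lay higher with empty vector, with mean log2 CPM of 3.90 in MCF10A and 4.76 in DCIS.COM. Of 6 other targets, HES4 was higher at 1.01 and 3 were lower, among them HES2 at -1.31, so the targets did not share a direction. With HOTAIR, MYC, a growth regulator with many inputs besides Notch, was at -1.38 in DCIS.COM over MCF10A. MYC also lay lower in DCIS.COM with empty vector, with mean log2 CPM of 7.91 in MCF10A and 7.04 in DCIS.COM.

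**Figure D4:**
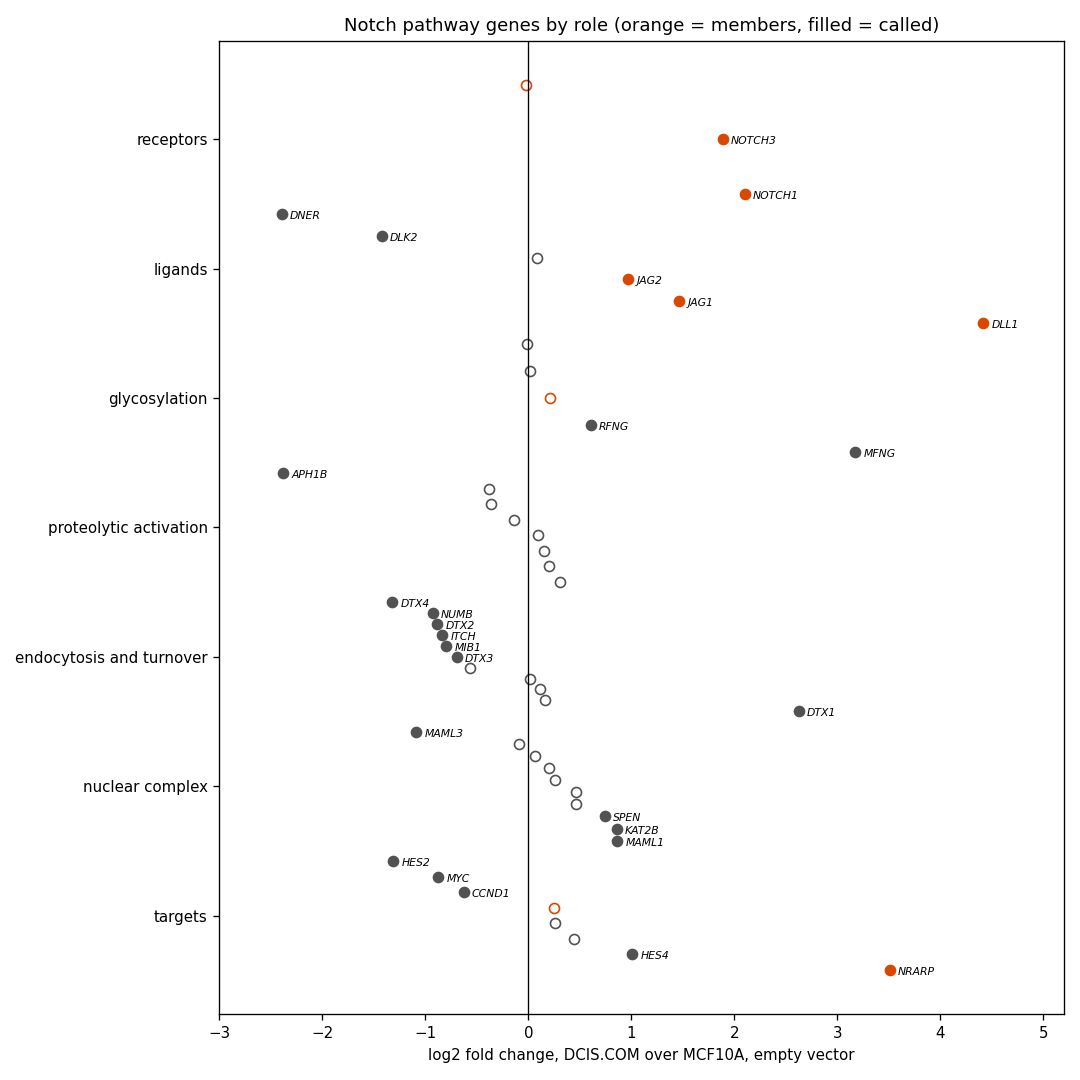
Log2 fold change of DCIS.COM over MCF10A with empty vector (horizontal axis) for the Notch pathway genes, arranged by role; orange points are the 9 genes of the set, grey points the 42 others, and filled points were called by limma. The called ligands of the set lie to the right, and DNER and DLK2 lie to the left.

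DLL1 had the largest fitted log2 fold change of the set between the lines with empty vector, 4.42 with the recovered prior. It entered the table through the DCIS.COM libraries. With a pseudocount of 1 CPM its value was 1.39, the median of the 9 genes, and lay below NRARP at 2.14 and NOTCH1 at 2.05 among others. The genes nearest to DLL1 were sought by the Euclidean distance of mean-centred log2 CPM over the 8 libraries. They were COL18A1 at 0.446, PPFIBP2 at 0.498 and RNF182 at 0.508, with log2 fold changes between the lines of 4.37, 4.47 and 4.46 with empty vector. All these distances mostly reflect the split between MCF10A and DCIS.COM, which the 8 libraries share.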

How the data were processed

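Per the study's methods, ScriptSeq v2 libraries were read as paired ends, and the authors mapped them to hg19 (Rsubread), used featureCounts on the UCSC gene models and scaled the counts in edgeR. The deposited values are log2 CPM by the authors, and all 13771 genes had over 0.5 CPM in at least 2 libraries. The prior, normalization factors and use of strand in counting are not given in the sources used here. From the deposited values a shared prior of 0.0717 CPM and whole reads were recovered (100% of values up to 1000 reads, tolerance 0.1). RPKM was computed as CPM less the prior, per kilobase of canonical transcript (GENCODE release 44 on GRCh37). Fold changes are on the scale of log2 CPM with this prior and understate changes of low genes. limma 3.58.1 in R 4.3.3 fitted 4 group means to all 8 libraries with a mean-variance trend, and it was tested on simulated data. A gene of the pathway list is not reported here. Low reads were compared as exact ratios. The members, lists and alternatives were chosen with earlier results of these data known. Named genes were the members, HOTAIR, up to 10 called pathway genes per contrast by size of change, and the 3 genes nearest to DLL1. Alternatives covered pseudocounts, scaling, filters, the trend, limma-voom, a replicate block, GC content, thresholds, separate fits and each library left out. The limma-voom fit scaled the recovered reads by library totals without normalization factors, so its values also differ from the main fit in scaling. No replicate of a group was treated as a duplicate.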

Additional observations from a re-analysis of the deposited data

Results flagged for a closer look

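For JAG1 and JAG2, every HOTAIR library lay above every empty-vector library in MCF10A and below every one in DCIS.COM. Of all genes, 22.5% were separated upward in MCF10A and 24.5% downward in DCIS.COM. The share of all genes that showed both is not given here. The HOTAIR effect in DCIS.COM (log2 scale) was -0.186 for JAG1 and -0.311 for JAG2. Leaving out DCIS.COM pCDH-empty 1 shrank these to -0.073 and -0.218. Leaving out DCIS.COM pCDH-empty 2 instead gave -0.299 and -0.405. The difference in the HOTAIR effect, DCIS.COM minus MCF10A on the log2 scale, was -0.454 for JAG1 (limma adjusted p = 0.397) and -0.386 for JAG2 (limma adjusted p = 0.398). Neither passed the threshold.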

How the results depend on the processing

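The 9 genes gave 796 single values under 18 alternatives, of which the GC correction was chosen after seeing the data, and the counts of called genes were also taken at other fold thresholds. With empty vector the count between lines was 6, against 7 with no fold threshold, 5 with a mean CPM of at least 2, which drops low genes, and 4 at a log2 fold change of at least 1.5. With HOTAIR it was 5, against 9, 4 and 4 in the same settings, and 6 where JAG2 passed. Of all 13771 genes, 9394 with empty vector and 9024 with HOTAIR were called with no fold threshold. For the interaction, leaving out each library gave counts from 0 to 4, the 4 being without DCIS.COM pCDH-empty 2, where 4414 of 13771 genes were called (32.1%); the cause was not tested. The call of a single gene changed in 10 of the 796 values, namely 6 for JAG2 between lines with HOTAIR and the 4 of the interaction. The sign differed from the main fit in 16 values, 11 of them with a library left out, and 0 of the 16 were called. These were NOTCH1 in MCF10A (0.0132 by limma-voom, -0.119 to 0.0705 with a library left out), NOTCH2 in MCF10A (0.0176 by limma-voom, -0.169 to 0.132), NOTCH2 between lines with empty vector (0.0165 with median centring, -0.177 to 0.123), NOTCH3 in DCIS.COM (-0.187 to 0.0233), DLL1 in DCIS.COM (-0.326 to 0.0628), DLL1 in the interaction (-0.00053 with a pseudocount of 0.1 CPM, -0.0598 with 1 CPM, -0.132 to 0.401) and NRARP in DCIS.COM (-0.215 to 0.0416). Over all genes, HOTAIR in DCIS.COM called 12 genes, against 0 in separate fits, 43 with GC correction, 60 without DCIS.COM pCDH-empty 1 and 1403 without DCIS.COM pCDH-empty 2; HOTAIR in MCF10A called 3, against 1 to 51 with a library left out. The replicate numbers did not pair the samples (correlations of deviations from -0.0160 to 0.0661), and with a replicate block the counts of called Notch genes were 0 for each vector comparison and the interaction, 6 between lines with empty vector and 5 with HOTAIR. Reads limit DLL1 and NRARP in MCF10A, where 0 to 13 reads stood behind each value.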
